A study of Mus musculus with 6 samples.

Results

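Ribosome biogenesis and nucleolar genes were followed as a group of 50 genes in mouse colon tumours with reduced DNA methylation and in their controls. The group is a list of names: RNA polymerase I and its factors, and proteins that form or escort small nucleolar ribonucleoproteins (snoRNPs). It also holds assembly factors of the small and the large ribosomal subunit, and other abundant nucleolar proteins. Of the 50 genes, 49 could be measured, among 19938 genes in all; Noc2l could not be measured, as no probe set carries its name by itself. The 3 hypomethylated tumours came from mice of the genotype Dnmt1chip/c; ApcMin/+, which carry a hypomorphic chip allele and a knockout c allele of Dnmt1, the maintenance DNA methyltransferase. The 3 control tumours came from Dnmt1chip/+; ApcMin/+ mice, so the controls carried the chip allele too, beside a wild-type allele. Every mouse had the Min mutation of Apc, was of mixed C57BL/6 and 129Sv4 background, received 2% dextran sodium sulfate at 6 weeks of age and was 20 weeks old at collection. The Dnmt1 alleles are in the germline, so all cells of a tumour and its host carried them.

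In every growing cell, RNA polymerase I copies the ribosomal RNA genes in the nucleolus, snoRNPs modify the precursor, and assembly factors fold, cut and trim it into the small and large subunits. Cells that divide make more ribosomes than cells that have stopped dividing, and in the colon that work is concentrated in the crypts. Many of these genes are known targets of MYC, which binds the sequence CACGTG (an E-box) as a pair with MAX, while the MXD proteins occupy the same sequence with MAX and oppose MYC.

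RNA was hybridised to arrays (the Affymetrix mouse Gene 1.0 ST type, per some sample descriptions). The deposited values are on a log scale, taken as base 2 because the values point to it and no label states it. Each probe set is centred on its median over the 6 tumours, so a value shows how a tumour stands against the others and holds no level. For a gene with 1 probe set the 2 middle values of the 6 are therefore mirror images about 0. From the numerical steps of the values, 10300 genes were inferred to have measured 8 or more on every array before the centring; all 49 measured members were among them, so these 10300 genes are given as a second background. The number of arrays limits the precision. Tumours are numbered 1 to 3 in each group, and values are given in that order. The sample descriptions carry the same number for all 3 hypomethylated tumours, another number for control tumours 1 and 2, and yet another for control tumour 3. If these numbers are mice, p-values measure the spread between tumours of few mice, and mouse and genotype cannot be told apart. Dnmt1, the altered gene, was at -0.37, -0.48 and -0.42 in the hypomethylated tumours and at 0.44, 0.52 and 0.37 in the control tumours. Which exons its probes read is not known here, so its value is no check of the alleles. Apc, mutant in both groups, differed by -0.23 ± 0.095 (SE; limma, adjusted p = 0.115).

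Most of the ribosome biogenesis genes that could be measured were lower in the hypomethylated tumours, each by less than 1.5-fold. Of the 49 measured genes, 30 fell and 0 rose (limma, p adjusted by Benjamini-Hochberg over the whole array, threshold 0.05), and 19 did not pass the test. At an unadjusted p under 0.05 the counts were 37 lower and 0 higher, with no share over all genes taken at that threshold. At the adjusted threshold 21.3% of all genes were called lower and 10.7% higher. Over the genes taken to lie at 8 or above these shares were 33.3% and 14.6%. The members called lower made up 61.2% of those measured. At an adjusted p under 0.01, 7 members were lower, a share near the background of 11.6% of all genes and 18.5% of the genes at 8 or above.

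All 49 members had a difference of means below 0, where 51.4% of all genes and 64.4% of the genes at 8 or above did; under quantile normalization the number was 45, with Rrp12, Utp20, Ddx10 and Nop10 above 0. The median difference was -0.31, a 1.24-fold lower value, with quartiles at -0.38 and -0.22. The median over all genes was -0.0058 and that over the genes at 8 or above was -0.11. Differences of the members had an SD of 0.128, against 0.459 over all genes and 0.498 over the genes at 8 or above. The range ran from -0.53 for Rrn3 to -0.025 for Ddx10, and 0 members were 1.5-fold lower or more.

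**Figure D1:**
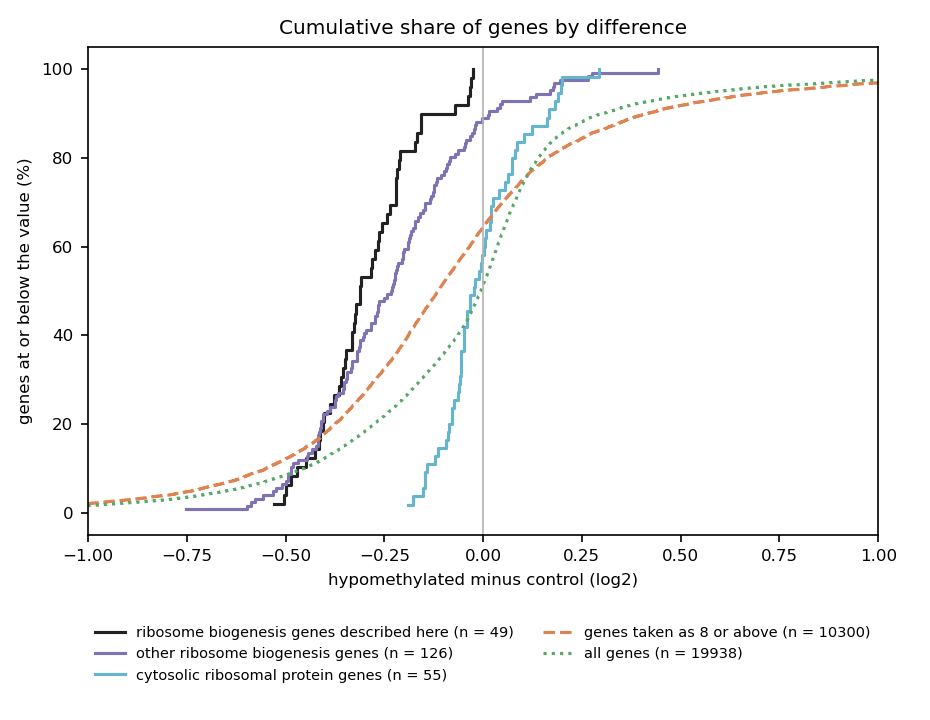
Cumulative share of genes (percent, vertical axis) by the difference of group means, hypomethylated minus control (log2, horizontal axis, cut at -1 and 1), for the 49 measured ribosome biogenesis genes, 126 other genes of the pathway, 55 ribosomal protein genes, the 10300 genes taken to lie at 8 or above, and all 19938 genes. The curve of the 49 genes lies wholly left of 0, with a median of -0.31, and that of the ribosomal protein genes rises steeply around 0.

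The groups did not overlap in 36 members: the 30 that fell and 6 others (Polr1c, Nop2, Noc4l, Wdr43, Heatr1 and Utp6). All 3 hypomethylated tumours lay below all 3 control tumours in 28.5% of all genes and in 43.7% of the genes at 8 or above, and above them in 17.9% and 19.9%. In a two-sided exact permutation test of each gene over the 20 splits of 3 against 3, these 36 members had p = 0.1, the smallest that the design allows. Any gene whose groups do not overlap has this p, so the test adds nothing to the count.

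The size of the shift differed between tumours of the same group. The mean over the 49 genes was -0.10, -0.25 and -0.080 in the hypomethylated tumours and 0.18, 0.23 and 0.037 in the control tumours. Hypomethylated tumour 2 was the lowest of its group in 41 genes, and control tumour 3 was the lowest of its group in 45. Control tumour 3 lay above all hypomethylated tumours in 36 genes, while control tumours 1 and 2 did so in 44 and 47. Values above 0 were found for 1, 0 and 11 genes in the hypomethylated tumours and for 49, 49 and 36 genes in the control tumours. The members' separation was thus narrowest between hypomethylated tumour 3 and control tumour 3.

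**Figure D2:**
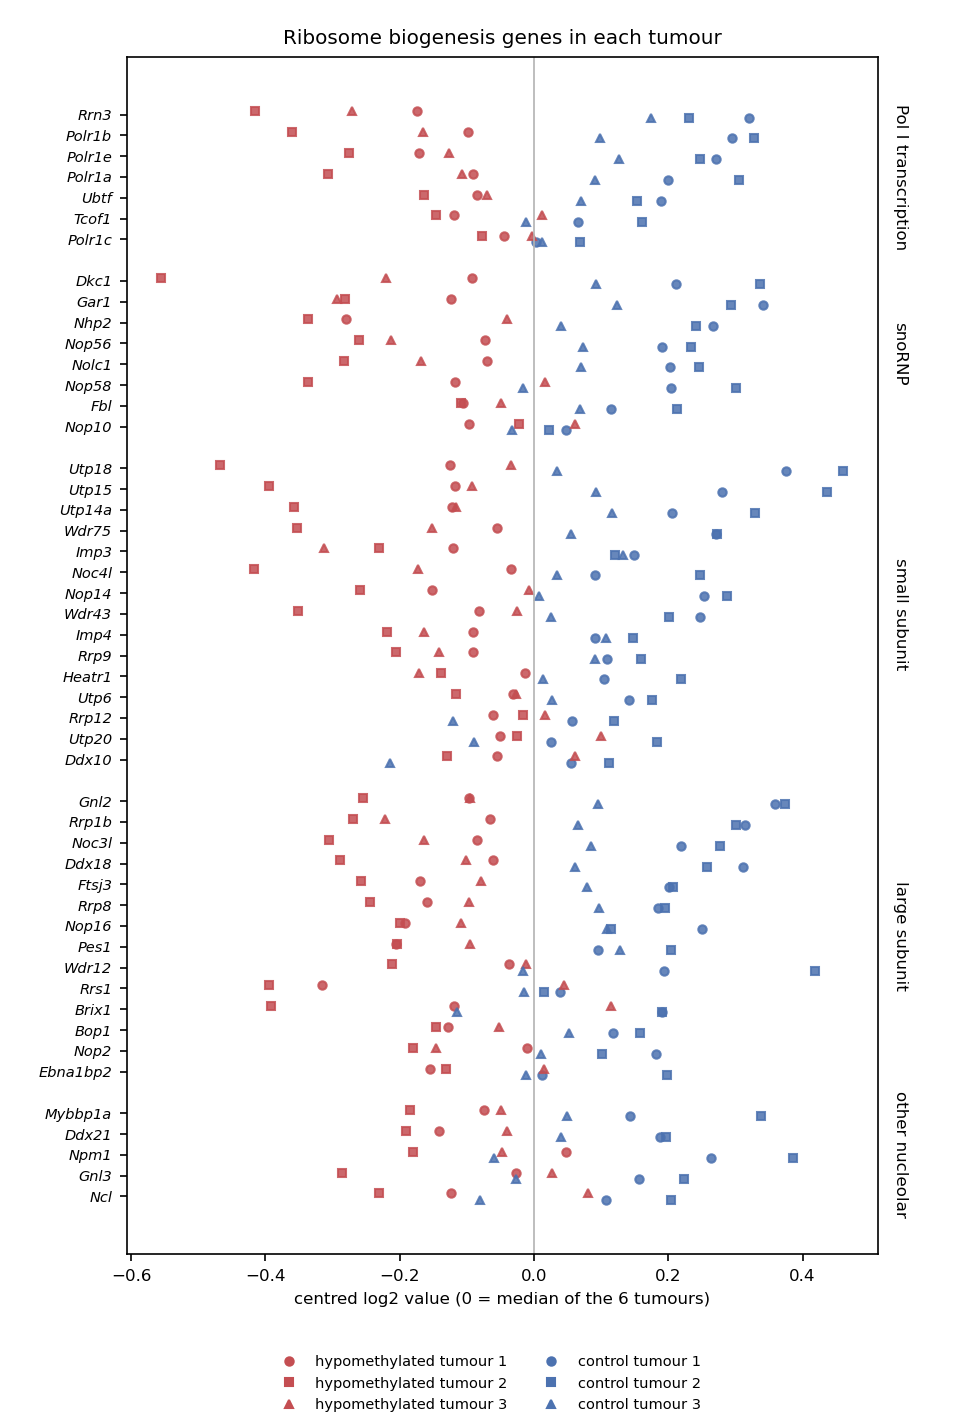
Centred log2 value (horizontal axis; 0 is the median of the 6 tumours) of each measured ribosome biogenesis gene in each tumour, with genes in rows, ordered by difference within each role. Red marks are hypomethylated and blue marks control tumours, with 1 mark shape for each tumour number; most red marks lie left of the blue ones, and control tumour 3 (blue triangles) is the lowest control in 45 of 49 rows.

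Single tumours moved the number of calls more than the size of the shift. Without control tumour 1, control tumour 2 or hypomethylated tumour 2 the test called 10, 16 and 19 members lower. Of all genes, 14.0%, 15.1% and 16.2% were called lower in these fits. Without control tumour 3, hypomethylated tumour 1 or hypomethylated tumour 3 the test called 34, 26 and 28 members lower, beside 18.4%, 21.4% and 17.9% of all genes. The median difference stayed between -0.36 and -0.24 in these 6 fits. The genes called in each of the 6 fits numbered 10: Rrn3, Polr1e, Polr1b, Gar1, Imp3, Imp4, Utp14a, Rrp8, Pes1 and Nop16. The calls of the other 20 were all lost without control tumour 1, with adjusted p-values from 0.0511 (Noc3l and Nop56) to 0.146 (Nop14). Without control tumour 2, 14 were lost, with adjusted p-values from 0.0536 (Nolc1) to 0.141 (Nop14). Without hypomethylated tumour 2, 11 calls were lost, with adjusted p-values from 0.0519 (Utp15) to 0.133 (Nop14). Without hypomethylated tumour 1, 7 were lost, with 0.0519 (Nhp2) to 0.0889 (Nop14). Without hypomethylated tumour 3 the calls of Fbl, Wdr75 and Mybbp1a were lost, with adjusted p-values of 0.0528, 0.0541 and 0.0766. All these adjusted p-values are from limma over all genes.

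The promoters of 3 members that fell are shown because they carry the letters of the E-box upstream of the gene's start. Nop2 carries them there too and is not shown, as it did not pass the test. Binding of MYC or MAX was not measured. RefSeq promoter windows of the GRCm38.p6 build, 300 bases long from 250 before to 50 after the start, were matched by symbol for 42 of the 50 members. The 250 bases before the start are printed 5′ to 3′ on the gene's strand, with CACGTG in capitals, for Rrn3 (chr16:13780449-13780698, plus strand), Imp4 (chr1:34439579-34439828, plus strand) and Utp18 (chr11:93885767-93886016, minus strand).
Rrn3: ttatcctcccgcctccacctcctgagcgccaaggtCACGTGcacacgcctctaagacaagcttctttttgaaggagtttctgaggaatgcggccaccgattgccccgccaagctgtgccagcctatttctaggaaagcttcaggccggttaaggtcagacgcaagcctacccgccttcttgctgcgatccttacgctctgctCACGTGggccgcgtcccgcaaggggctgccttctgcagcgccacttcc
Imp4: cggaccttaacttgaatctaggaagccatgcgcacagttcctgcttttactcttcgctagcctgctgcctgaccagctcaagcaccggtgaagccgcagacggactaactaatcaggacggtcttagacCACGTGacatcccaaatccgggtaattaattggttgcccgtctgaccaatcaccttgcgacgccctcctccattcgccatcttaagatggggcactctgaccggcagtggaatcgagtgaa
Utp18: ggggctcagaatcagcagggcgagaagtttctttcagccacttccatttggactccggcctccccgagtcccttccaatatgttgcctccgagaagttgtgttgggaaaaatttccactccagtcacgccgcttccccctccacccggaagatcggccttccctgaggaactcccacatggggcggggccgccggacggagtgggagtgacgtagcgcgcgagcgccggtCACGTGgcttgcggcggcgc
The first base of CACGTG lies 215 and 48 bases before the start in Rrn3, 121 before it in Imp4 and 20 before it in Utp18.

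CACGTG, which reads the same on both strands, was found for 8 of the 42 members, or 19.0%. Genes were counted where any of their windows held the letters, so shares of single windows are not a like measure. CACGTG was also found for 18.9% of 106 other genes of the pathway and 9.5% of the measured genes. Of those at 8 or above it was found for 994 of 8278. Of all 32851 single windows 7.15% held it. The members with it were Rrn3, Imp4, Utp18 and Nop2 before the start and Wdr43, Utp20 and Mybbp1a after it. In Pes1 it began 2 bases from the start and lay across or after it. Of these 8, 5 fell, with a median difference of -0.30; of 33 measured members without it, 22 fell, with a median of -0.33. The difference between members with and without it was not tested. CCGGAAG, the core recognised by ETS-family factors and searched on either strand, was found for 33.3% of the 42 members. Its share was 44.3% of the 106 other pathway genes, 13.6% of the measured genes and 20.7% of those at 8 or above. Of all single windows 8.86% held it. The CGCG element, a palindrome known from housekeeping promoters, was found for 0 of 42 members and 3.77% of the other pathway genes. Its share was 0.833% of the measured genes, 1.29% of those at 8 or above and 0.466% of all single windows. A match is only a match of letters.

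The genes that transcribe the ribosomal RNA genes showed the largest single difference: 5 of 7 fell, or 71.4%, with a median difference of -0.37. The share lower was 21.3% over all genes and 33.3% over the genes at 8 or above. Rrn3, the factor that recruits RNA polymerase I to the promoter, was at -0.17, -0.42 and -0.27 in the hypomethylated tumours and at 0.32, 0.23 and 0.17 in the control tumours. Its group means were -0.29 ± 0.12 and 0.24 ± 0.074 (SD, n = 3 each), apart by more than the spread within either group, and it fell by 0.53 ± 0.079 (SE), or 1.44-fold (limma, adjusted p = 0.00313). The Rrn3 promoter printed above holds the E-box at 2 places.

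Polr1e, a subunit found in polymerase I and in no other polymerase, was at -0.17, -0.28 and -0.13 in the hypomethylated tumours and at 0.27, 0.25 and 0.13 in the control tumours, and fell by 0.41 ± 0.068 (SE; limma, adjusted p = 0.00473). Polr1b, the second largest subunit, was at -0.099, -0.36 and -0.17 in the hypomethylated tumours and at 0.30, 0.33 and 0.099 in the control tumours, and fell by 0.45 ± 0.094 (SE; limma, adjusted p = 0.0109). In both genes all hypomethylated tumours were below all control tumours, with control tumour 3 the lowest control. Polr1a, the largest and catalytic subunit, fell by 0.37 and Ubtf, the upstream binding factor of the ribosomal RNA genes, by 0.24 (limma, adjusted p = 0.0166 and 0.0202). Polr1c, which polymerase III shares, differed by -0.070 and Tcof1, the treacle protein of the ribosomal RNA genes, by -0.16 (limma, adjusted p = 0.381 and 0.149).

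**Figure D3:**
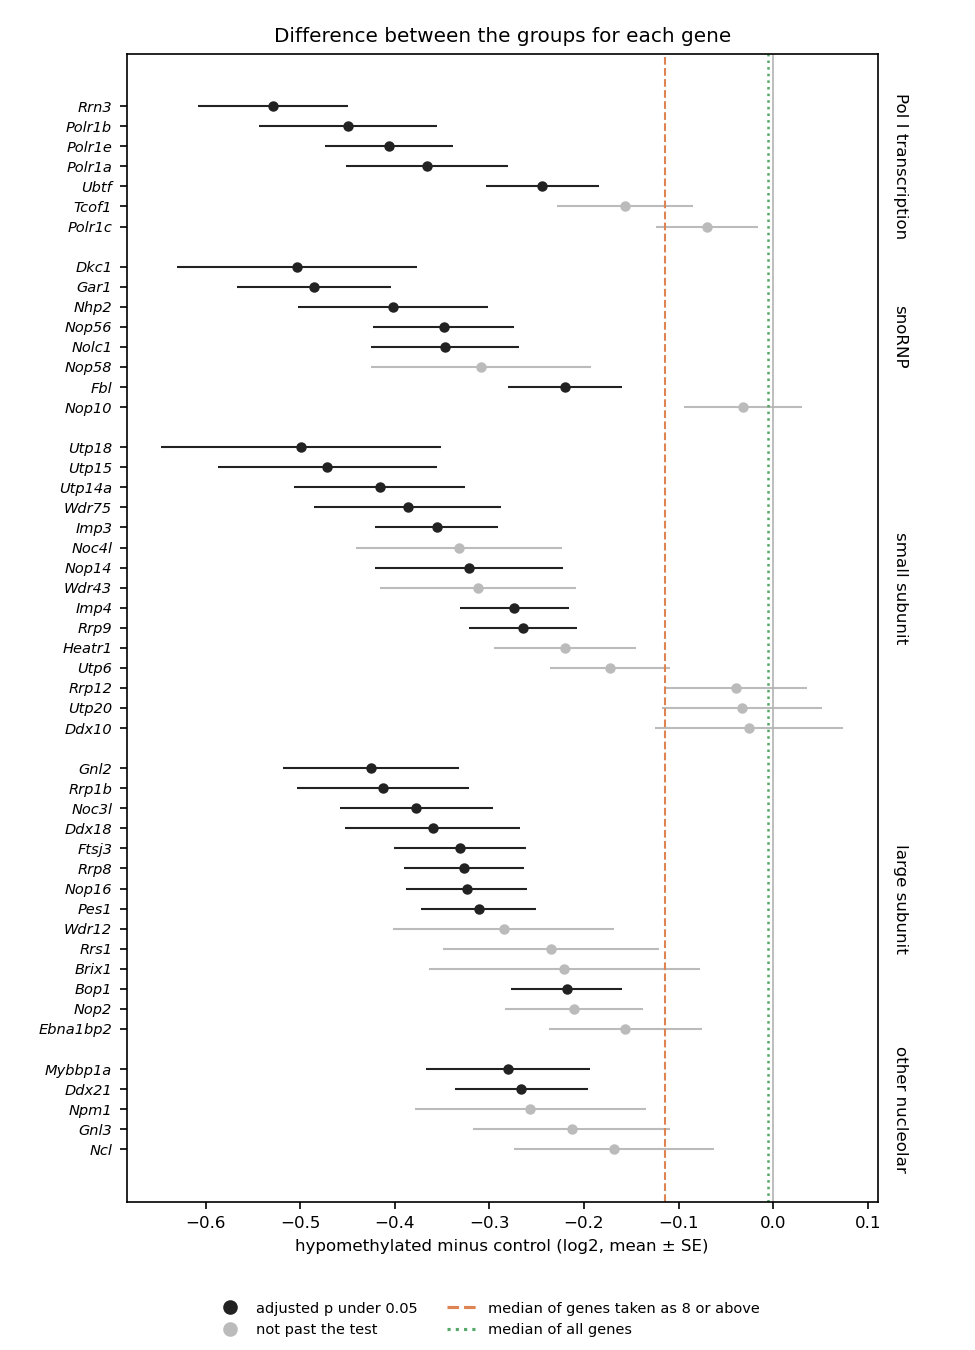
Difference of group means, hypomethylated minus control (log2, horizontal axis), of each measured ribosome biogenesis gene with its standard error as a bar, with genes in rows by role; black genes were called lower by limma at an adjusted p under 0.05 and grey genes were not called. The dashed line is the median of the genes taken to lie at 8 or above (-0.11) and the dotted line that of all genes (-0.0058). All 49 points lie below 0, from -0.53 (Rrn3) to -0.025 (Ddx10).

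Of the snoRNP proteins, which take part in the chemical modification of ribosomal RNA, 6 of 8 fell, or 75%, with a median difference of -0.35. The share lower was 21.3% over all genes and 33.3% over the genes at 8 or above. Of the 8 proteins, all but Nolc1 are core proteins of the particles. Gar1, of the H/ACA particles that form pseudouridine, was at -0.12, -0.28 and -0.29 in the hypomethylated tumours and at 0.34, 0.29 and 0.12 in the control tumours, and fell by 0.49 ± 0.081 (SE; limma, adjusted p = 0.00474). Nop56, of the C/D particles that methylate ribose, was at -0.073, -0.26 and -0.21 in the hypomethylated tumours and at 0.19, 0.23 and 0.073 in the control tumours, and fell by 0.35 ± 0.074 (SE; limma, adjusted p = 0.0117). Hypomethylated tumour 1 and control tumour 3 were nearest to each other in both.

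Nolc1, which escorts both kinds of particle through the nucleolus, was at -0.071, -0.28 and -0.17 in the hypomethylated tumours and at 0.20, 0.25 and 0.071 in the control tumours, and fell by 0.35 ± 0.078 (SE; limma, adjusted p = 0.0146). Dkc1, the pseudouridine synthase itself, fell by 0.50 and Nhp2, another H/ACA protein, by 0.40 (limma, adjusted p = 0.0219 and 0.0212). Dkc1 had the lowest single value of all members, -0.56 in hypomethylated tumour 2. Nop10, the remaining H/ACA protein, differed by only -0.032 (limma, adjusted p = 0.751), and its groups overlapped. The H/ACA core proteins thus split into 3 that fell by 0.40 to 0.50 and Nop10.

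Fbl, the ribose methyltransferase of the C/D particles, fell by 0.22 (limma, adjusted p = 0.0299) as the mean of 2 probe sets that disagreed. Both are annotated to the same transcript; one differed by -0.38 with groups that did not overlap, the other by -0.061 with groups that did. Its Nop58 partner, of the same particle, differed by -0.31 with overlapping groups (limma, adjusted p = 0.0853). Wdr12 and Ddx18 also have 2 probe sets, which differed by -0.30 and -0.26 for Wdr12 and by -0.50 and -0.22 for Ddx18.

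Among the assembly factors of the small subunit 8 of 15 fell, or 53.3%, with a median difference of -0.31. The share lower was 21.3% over all genes and 33.3% over the genes at 8 or above, where all 15 lie. Imp3, which joins the U3 particle to the precursor, was at -0.12, -0.23 and -0.31 in the hypomethylated tumours and at 0.15, 0.12 and 0.13 in the control tumours, and fell by 0.36 ± 0.065 (SE; limma, adjusted p = 0.00643). Imp4, its partner, was at -0.091, -0.22 and -0.16 in the hypomethylated tumours and at 0.091, 0.15 and 0.11 in the control tumours, and fell by 0.27 ± 0.058 (SE; limma, adjusted p = 0.0113). The control tumours lay close together in both, with SDs of 0.014 and 0.029.

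Rrp9, a protein of the U3 particle, was at -0.090, -0.21 and -0.14 in the hypomethylated tumours and at 0.11, 0.16 and 0.090 in the control tumours, and fell by 0.26 ± 0.057 (SE; limma, adjusted p = 0.0123). Utp14a, Utp15, Wdr75 and Utp18, further proteins of the early small-subunit precursor, fell by 0.42, 0.47, 0.39 and 0.50. Utp18, whose promoter is printed above, had the widest spread of these, with SDs of 0.23 in the hypomethylated and 0.23 in the control tumours (limma, adjusted p = 0.0399). Nop14 lay just inside the threshold and its partner Noc4l just outside it, with differences of -0.32 and -0.33 (limma, adjusted p = 0.0458 and 0.0557). Wdr43, Heatr1 and Utp6 also separated the groups without passing the test, with differences of -0.31, -0.22 and -0.17.

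The other 3 small-subunit genes and Nop10 showed the smallest differences of all members. Rrp12, which takes part in the export of subunits, differed by -0.039, Utp20 by -0.033 and the RNA helicase gene Ddx10 by -0.025 (limma, adjusted p = 0.746, 0.816 and 0.881). Ddx10 was at -0.055, -0.13 and 0.061 in the hypomethylated tumours and at 0.055, 0.11 and -0.22 in the control tumours. Control tumour 3 was the lowest of all 6 tumours for each of these 3 genes. Their sign was not stable: all 3 turned positive under quantile normalization and without control tumour 2.

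Among the assembly factors of the large subunit 9 of 14 fell, or 64.3%, with a median difference of -0.32. The share lower was 21.3% over all genes and 33.3% over the genes at 8 or above. Rrp8, a methyltransferase that acts on the large ribosomal RNA, was at -0.16, -0.24 and -0.097 in the hypomethylated tumours and at 0.19, 0.20 and 0.097 in the control tumours, and fell by 0.33 ± 0.063 (SE; limma, adjusted p = 0.00812). Pes1, of the complex that it forms with Bop1 and Wdr12, was at -0.21, -0.20 and -0.096 in the hypomethylated tumours and at 0.096, 0.20 and 0.13 in the control tumours, and fell by 0.31 ± 0.061 (SE; limma, adjusted p = 0.00861). Both genes separated the groups by a gap, with hypomethylated tumour 3 the highest of its group.

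Bop1 fell by 0.22 (limma, adjusted p = 0.0275), while Wdr12, the other member of the Pes1 complex, differed by -0.28 with overlapping groups (limma, adjusted p = 0.11). Nop16, a nucleolar protein of large-subunit assembly, was at -0.19, -0.20 and -0.11 in the hypomethylated tumours and at 0.25, 0.11 and 0.11 in the control tumours, and fell by 0.32 ± 0.064 (SE; limma, adjusted p = 0.0089). Gnl2, a GTPase of subunit export, fell by 0.43, Rrp1b by 0.41, Noc3l by 0.38, the RNA helicase gene Ddx18 by 0.36 and the methyltransferase gene Ftsj3 by 0.33 (limma, adjusted p between 0.0115 and 0.0233). Nop2, a methyltransferase of the large ribosomal RNA, differed by -0.21 with groups that did not overlap (limma, adjusted p = 0.0675). Rrs1, Ebna1bp2 and Brix1 differed by -0.23, -0.16 and -0.22 with overlapping groups; in all 3, hypomethylated tumour 3 lay above 0.

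Of the other nucleolar proteins 2 of 5 fell, with a median difference of -0.26. This share of 40% is near the 33.3% of the genes at 8 or above, where all 5 lie. Ddx21, an RNA helicase of ribosomal RNA transcription and processing, was at -0.14, -0.19 and -0.040 in the hypomethylated tumours and at 0.19, 0.20 and 0.040 in the control tumours, and fell by 0.27 ± 0.071 (SE; limma, adjusted p = 0.0265). Mybbp1a, a nucleolar regulator of ribosomal RNA synthesis, was at -0.074, -0.18 and -0.050 in the hypomethylated tumours and at 0.14, 0.34 and 0.050 in the control tumours, and fell by 0.28 ± 0.087 (SE; limma, adjusted p = 0.0458). In both genes hypomethylated tumour 3 and control tumour 3 lay nearest to each other across the groups.

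The other 3 genes of this role did not pass the test. Npm1, the histone chaperone nucleophosmin, was at 0.047, -0.18 and -0.047 in the hypomethylated tumours and at 0.26, 0.39 and -0.060 in the control tumours, a difference of -0.26 ± 0.12 (SE; limma, adjusted p = 0.161). Ncl, nucleolin, differed by -0.17, and Gnl3, the GTPase nucleostemin of stem and tumour cells, by -0.21 (limma, adjusted p = 0.28 and 0.172). In all 3 the groups overlapped, with control tumour 3 below at least 1 hypomethylated tumour. Npm1 has 3 further probe sets that name other genes too, so copies of its sequence may share signal with it.

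Outside the 50 genes, 126 of 129 other genes of the same pathway were measured, and 55 fell while 2 rose (limma, adjusted p under 0.05), a share of 43.7% lower. The background was 21.3% of all genes and 33.3% of the genes at 8 or above, to which 117 of the 126 belong. Their median difference was -0.23, and 112 lay below 0. Without control tumour 1, control tumour 2 or hypomethylated tumour 2 the number that fell was 25, 25 and 35. Of all genes, 14.0%, 15.1% and 16.2% fell in these fits. The smallest adjusted p was that of Tbl3, a protein of the early small-subunit precursor, which fell by 0.51 (limma, adjusted p = 0.00133).

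By step, 18 of 38 further small-subunit genes fell, or 47.4%. Among them were Ltv1, needed for late maturation of the small subunit, lower by 0.59, Utp4 by 0.43 and Tsr3, which modifies the small ribosomal RNA, by 0.38. Of 45 large-subunit genes 18 fell, or 40%, not far from the 33.3% of the genes at 8 or above. Among them were Wdr18, lower by 0.45, and Pelp1 by 0.47, which belong to the same complex, the RNA helicase gene Ddx56 by 0.49 and Wdr74 by 0.40. Of 26 genes that cut and trim RNA 12 fell, or 46.2%. Those with the smallest adjusted p included Pop4 and Rpp40 of the RNase P and MRP particles, lower by 0.75 and 0.58. The exosome subunits Exosc1 and Exosc4, lower by 0.49 and 0.35, were the others. The further snoRNP genes gave 5 of 8, or 62.5%, with Ruvbl1, Ruvbl2, Snu13 and Shq1 lower by 0.42, 0.41, 0.28 and 0.27 as group means. Snu13 lost its call without control tumours 1 and 2, at adjusted p-values of 0.0691 and 0.057 (limma). Shq1 lost its call without control tumours 1 and 2 and hypomethylated tumours 2 and 3, at 0.0889, 0.0733, 0.0574 and 0.0509 (limma).

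Of the other polymerase I genes 2 of 9 were lower, or 22.2%. That is near the share of 21.3% over all genes and under the 33.3% of the genes at 8 or above. Taf1b, of the factor that selects the polymerase I promoter, fell by 0.48 and Cd3eap, a polymerase I subunit, by 0.32 (limma, adjusted p = 0.00463 and 0.00813). Polr1d, shared with polymerase III like Polr1c, differed by 0.18 (limma, adjusted p = 0.145). The 2 genes that rose, named after their values were seen, were Riok3 by 0.44, a kinase of small-subunit maturation, and Eif6 by 0.19, which keeps the large subunit from joining the small one (limma, adjusted p = 0.0111 and 0.039). Riok3 kept its call in each of the 6 fits without 1 tumour; Eif6 lost it in each, with adjusted p-values from 0.0524 to 0.123.

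Ribosomal proteins are the parts that this machinery assembles. Of 77 cytosolic ribosomal protein genes 55 were measured, and 2 fell, Rps13 by 0.19 and Rpl6 by 0.18 (limma, adjusted p = 0.0406 and 0.0496). None rose at an adjusted p under 0.05. At an unadjusted p under 0.05 the counts were 4 lower and 6 higher, with no share over all genes taken at that threshold. The median difference was -0.023, beside -0.0058 over all genes and -0.11 over the genes at 8 or above, to which 54 of the 55 belong, and 32 lay below 0; under quantile normalization the median was 0.022. The calls of Rps13 and Rpl6 were lost without control tumour 1, at adjusted p-values of 0.139 and 0.166 (limma), and in most of the other fits without 1 tumour. Ribosomal proteins have many pseudogene copies and their probe sets are often shared, so these values are less certain than those of the members. The difference between the 2 lists was not tested.

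The MYC network was divided. Myc itself was at 0.023, -0.023 and 0.13 in the hypomethylated tumours and at -0.056, 0.069 and -0.16 in the control tumours, a difference of 0.092 ± 0.078 (SE; limma, adjusted p = 0.43), with overlapping groups. Its relatives Mycl and Mycn fell by 0.97 and 0.74 (limma, adjusted p = 4.92e-04 and 0.00311). Mxd1, the antagonist linked to differentiation, was at 0.72, 0.72 and 0.41 in the hypomethylated tumours and at -1.03, -1.23 and -0.41 in the control tumours, and rose by 1.51 ± 0.21 (SE), or 2.85-fold (limma, adjusted p = 0.00242). Max, the shared partner, rose by 0.38 (limma, adjusted p = 0.00471). Mnt, Mxd3, Mxd4 and Mxi1, further MAX partners, differed by -0.22, -0.21, -0.11 and -0.069 and did not pass the test. The calls of Mycl, Mycn, Mxd1 and Max held in each fit without 1 tumour. Whether these genes bear on the ribosome biogenesis genes was not tested.

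Many markers of proliferation and of cell types differed in the same comparison. Over all genes 21.3% were called lower and 10.7% higher, beside 33.3% and 14.6% of the genes at 8 or above. Of 15 measured proliferation genes 12 were lower and 0 higher; their mean was -0.28, -0.35 and -0.10 in the hypomethylated tumours and 0.24, 0.34 and 0.10 in the control tumours, so control tumour 3 was the lowest control here as it was for the members. Of 10 epithelial markers 8 were higher, with means of 0.21, 0.34 and 0.23 in the hypomethylated tumours and -0.31, -0.44 and -0.22 in the control tumours. All 10 colonocyte markers were higher, with means of 1.01, 1.56 and 1.37 in the hypomethylated tumours and -1.47, -1.71 and -1.07 in the control tumours. All 10 epithelial markers, and 4 of the 10 colonocyte markers, were taken to lie at 8 or above.

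Markers of the other cells of a tumour differed from list to list. Of 10 fibroblast markers 7 were lower, with means of -0.11, -0.56 and -0.42 in the hypomethylated tumours and 0.11, 0.32 and 0.47 in the control tumours. Of 10 smooth muscle markers 5 were lower (means -0.083, -0.28 and -0.20 in the hypomethylated and 0.11, 0.15 and 0.29 in the control tumours), and of 10 endothelial markers 6 were lower and 1 higher (means -0.022, -0.39 and -0.17 in the hypomethylated and 0.052, 0.17 and 0.22 in the control tumours). Of 10 macrophage markers 4 were lower, with means of 0.072, -0.73 and -0.42 in the hypomethylated tumours and -0.024, 0.15 and 0.43 in the control tumours. This share of 40% is near the 33.3% of the genes at 8 or above, where 8 of the 10 lie. Of 8 lymphocyte markers 1 was higher (means 0.63, -0.028 and 0.033 in the hypomethylated and -0.18, -0.069 and 0.16 in the control tumours). This share of 12.5% is near the 10.7% of all genes called higher. In these 5 lists control tumour 3 had the highest mean of the controls, whereas in the ribosome biogenesis genes it had the lowest. Centred values cannot show which markers are at the array's floor. In whole tumours, fewer cells of a type and less RNA per cell cannot be told apart, and the part of cell mixture in the members' difference was not tested.

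**Figure D4:**
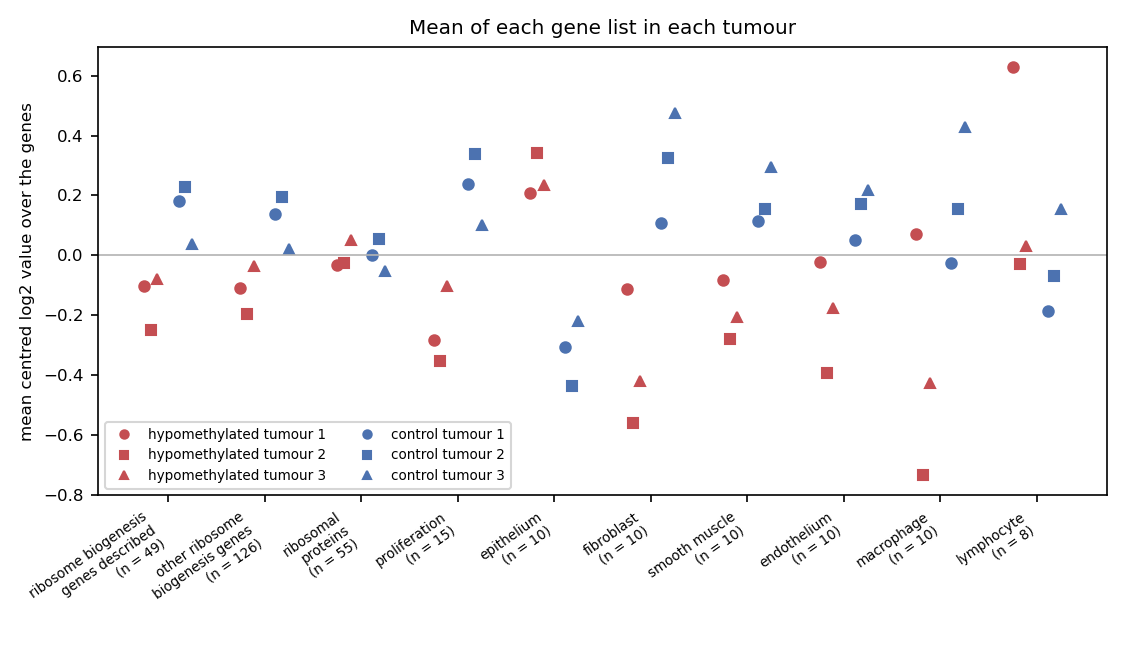
Mean centred log2 value (vertical axis) over the genes of each list (horizontal axis, number of measured genes in brackets) in each of the 6 tumours, hypomethylated in red and control in blue, with 1 mark shape for each tumour number. The ribosome biogenesis and proliferation lists are lower in all 3 hypomethylated tumours than in the control tumours, the epithelial list is higher, and the ribosomal protein list stays near 0.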

How the data were processed

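Expression was measured on arrays in 6 colon tumours, grouped by the genotype in the labels. The deposited values were read as log2, with 1 value for each array and probe set; every probe set has its median over the arrays at 0 (100% within 1e-06). How the arrays were normalized and summarized is not given in the sources used here. Of 28856 probe sets, the 21789 with 1 gene symbol in the platform annotation were averaged per gene, 999 of 19938 genes having several; symbols were checked by Entrez number against RefSeq. The 48.2% of probe sets whose values are all multiples of 2 raised to minus 20 were taken to lie at 8 or above before centring, a step that lower values can reach by chance.

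The test was limma (lmFit and eBayes, no trend, no block, two-sided) on all 6 tumours, with Benjamini-Hochberg adjustment over all genes. Values for each tumour were printed for the 3 members with the smallest adjusted p in each role and for those with the largest and smallest difference; up to 4 called genes were named from each other list. The probe sets of Fbl, Wdr12 and Ddx18 and the low value of Dkc1 were singled out after their values were seen. The members and lists were chosen with earlier results of these data known. Scripts were tested on simulated data. Motifs were searched in RefSeq promoter windows. Arrays carry no counts, so no depth applies. R 4.3.3, limma 3.58.1, Python 3.11.15, pandas 2.3.3, scipy 1.17.1 and matplotlib 3.10.9 were used. Alternatives were other normalizations, array weights, blocks, thresholds and filters, and leaving out each tumour.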

Additional observations from a re-analysis of the deposited data

How the results depend on the processing

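Centred values of 6 arrays limit these results: no level, detection call or signal over background is available, so a low group that lies at the array's floor cannot be recognised. The cause of the changes below was not tested, except that stricter thresholds call fewer genes by construction.

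The median difference of the members stayed within the spread between replicates in every setting run, and the count of members called higher was 0 in each. Of 781 values of single members over 16 settings, 635 kept direction and call, 105 lost the call, 31 gained it and 10 turned positive. These were Rrp12 (0.012 under quantile normalization, 0.011 without control tumour 2), Utp20 (0.025 and 0.039), Ddx10 (0.048 and 0.038, 0.01 without control tumour 1, 0.019 without hypomethylated tumour 2) and Nop10 (0.0046 under quantile normalization, 0.0066 without hypomethylated tumour 1). Their lowest values without 1 tumour were -0.11, -0.097, -0.12 and -0.072 for Rrp12, Utp20, Ddx10 and Nop10.

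Without 1 tumour at a time the ranges were 10 to 34 members lower, 25 to 57 other pathway genes lower and 1 to 4 higher, 0 to 1 ribosomal protein genes lower and 0 to 4 higher, and 4199 to 6593 genes called in all. At an adjusted p under 0.01 there were 3511 called genes, 7 members lower, 20 other pathway genes lower and 0 higher, and 0 ribosomal protein genes lower; under 0.10, 5 other pathway genes and 6 ribosomal protein genes were higher. The other pathway genes higher numbered 6 with array weights, 4 among genes at 8 or above, 5 under quantile normalization and 5 with a random block by the description number (estimated correlation -0.17). The ribosomal protein genes lower numbered 4 with array weights, 1 with robust eBayes and 0 after centring each array on its median, under quantile normalization or with genes of 1 probe set. Those higher numbered 2 after median centring, 6 with array weights, 3 at 8 or above, 3 under quantile normalization and 6 with the random block.

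The titles number the tumours 1 to 3 in each group and do not say that equal numbers form pairs. Deviations of same-numbered tumours from their group means correlated over genes at -0.29, -0.31 and -0.22. Those of differently numbered tumours correlated at 0.052 to 0.29. What lies behind this pattern was not tested. With the replicate numbers as a block 12 members were lower, 26 other pathway genes lower and 1 higher, and 0 ribosomal protein genes lower. In that fit 13.6% of all genes were lower.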

Other observations

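The small nucleolar RNAs themselves, which guide the modification of ribosomal RNA and are mostly cut from introns, were more often called higher than lower. This set was chosen by name after values were seen. At an unadjusted p under 0.05 (limma), 18 of 51 measured Snord and Snora genes were higher and 0 lower in the hypomethylated tumours. No share over all genes was taken at that threshold. At an adjusted p under 0.05 (limma) 16 were higher and 0 lower, beside 10.7% higher over all genes. The higher ones were 7 of 31 Snord genes, of the C/D kind, and 9 of 20 Snora genes, of the H/ACA kind, with median differences of 0.060 and 0.20. Snord14e was at 0.45, 0.52 and 0.32 in the hypomethylated tumours and at -0.33, -0.32 and -0.56 in the control tumours, and rose by 0.83 ± 0.088 (SE; limma, adjusted p = 9.29e-04). Snora33 rose by 1.21 and Snora73b by 0.57 (limma, adjusted p = 0.00343 and 0.0076). The list's mean was 0.089, 0.12 and 0.055 in the hypomethylated tumours and -0.095, 0.052 and -0.20 in the control tumours, so control tumour 2 lay beside hypomethylated tumour 3. The number of higher calls was 5 without control tumour 1, 7 without hypomethylated tumour 2 and 10 without control tumour 3, where 3 genes were also lower. In these fits 1407, 1676 and 1799 of all 19938 genes were called higher. Array probes for such short RNAs may also read the host gene's precursor, and whether the column extraction kept short RNAs evenly was not tested.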
